A study of Mus musculus with 18 samples.

Results

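The genes of the MYC network and of polyamine synthesis were followed through 18 RNA-seq libraries of mouse CD4+ T cells. 10 of the 37991 genes in the count tables were taken by name and matched to their Ensembl identifiers: Myc and its partner Max, the repressor genes Mxd1, Mxd4, Mxi1 and Mnt, and the polyamine enzyme genes Odc1, Amd1, Srm and Sms. The cells came from the spleen of Tg4-H2u mice, which express a transgenic TCR that recognises a peptide of myelin basic protein. The study's methods describe a CD4+ repertoire skewed to the β chain of this TCR, so not every cell need carry it. Male and female young adult mice were used, the youngest of them 6 weeks old. Naive mice received PBS, and tolerized mice received 7 subcutaneous injections of the high-affinity 4Y peptide in rising amounts, 3 to 4 days apart. The untreated groups were N0 (naive) and T0 (tolerized), harvested 2 h after a last injection of PBS. The antigen groups were NAg and TAg, harvested 2 h after a last injection of 80 µg of peptide Ag. In the PI groups, NPI and TPI, CD4+ cells were kept in culture for 2 h with 20 ng/ml PMA and 2 µM of the calcium ionophore A23187, which act downstream of the TCR. Each group had 3 replicate libraries. The untreated cells were not cultured in this way, so PI treatment and culture cannot be told apart.

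MYC is a transcription factor that binds E-box DNA as a pair with MAX and drives genes for growth, ribosome assembly and nutrient uptake. The MXD proteins, MXI1 and MNT also pair with MAX and repress the same kind of site, so the balance between these partners sets the output of the network. Polyamines (putrescine, spermidine and spermine) are small cations that dividing cells need. Ornithine decarboxylase (Odc1), a classical MYC target, makes putrescine, S-adenosylmethionine decarboxylase (Amd1) supplies the aminopropyl groups, spermidine synthase (Srm) makes spermidine and spermine synthase (Sms) makes spermine. In T cells, both MYC and polyamine synthesis are known to rise when resting cells are activated.

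In the NCBIM37 build (mm9) used for the counts, Myc lies on chr15:61816946-61821929, Max on chr12:78038256-78063235, Mxd1 on chr6:86597038-86619153, Mxd4 on chr5:34516536-34530369, Mnt on chr11:74644422-74659227 and Mxi1 on chr19:53384996-53450300. The enzyme genes lie on chr12:17551679-17558308 (Odc1), chr10:40007265-40021992 (Amd1), chr4:147965612-147969102 (Srm) and chrX:153881787-153930219 (Sms). Counts cover the exons of the whole gene. Mxi1 shares 194 exonic bases with Gm10197 on the opposite strand, and whether counting used the strand is not given in the sources used here, so a part of its reads could belong to that gene. The coding sequence of Amd1 is identical to that of Amd2 at 1004 of 1005 bases. Amd2 took between 5.17% and 8.4% of the reads counted on either gene, and the split between them is uncertain.

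Because MYC, MXD, MXI1 and MNT all bind the E-box CACGTG with MAX, the promoters of the members were searched for these letters, which read the same on both strands. The windows were the RefSeq promoters of GRCm38.p6, a later build than that of the counts, from 250 bases before to 50 bases after each start. 8 of the 10 members had a window (11 windows in all), and Myc and Srm had none. CACGTG was present in 4 of the 8: Max, Mxd4, Mnt and Sms. Over all RefSeq promoters of this length, 2349 of 32851 windows (7.15%) held it. That share is per window, whereas members were counted by gene with a match in any of its windows, so the units are unlike. These 4 promoters are shown because they are those of members that carry the letters, with the E-box in capitals, written 5′ to 3′ on the strand of the gene.
Max, GRCm38.p6 chr12:76962199-76962498, minus strand: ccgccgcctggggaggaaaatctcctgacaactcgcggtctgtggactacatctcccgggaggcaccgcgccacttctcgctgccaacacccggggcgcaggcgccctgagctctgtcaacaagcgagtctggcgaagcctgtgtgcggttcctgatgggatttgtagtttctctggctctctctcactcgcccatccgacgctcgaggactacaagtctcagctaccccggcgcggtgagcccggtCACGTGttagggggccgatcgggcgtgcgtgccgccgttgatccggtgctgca
Mxd4, GRCm38.p6 chr5:34187661-34187960, minus strand: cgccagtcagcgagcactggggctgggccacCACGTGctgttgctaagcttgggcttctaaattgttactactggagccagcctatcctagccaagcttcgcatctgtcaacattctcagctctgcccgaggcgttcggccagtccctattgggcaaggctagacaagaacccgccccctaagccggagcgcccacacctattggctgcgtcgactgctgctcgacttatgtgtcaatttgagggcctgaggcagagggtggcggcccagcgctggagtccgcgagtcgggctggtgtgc
Mnt, GRCm38.p6 chr11:74830674-74830973, plus strand: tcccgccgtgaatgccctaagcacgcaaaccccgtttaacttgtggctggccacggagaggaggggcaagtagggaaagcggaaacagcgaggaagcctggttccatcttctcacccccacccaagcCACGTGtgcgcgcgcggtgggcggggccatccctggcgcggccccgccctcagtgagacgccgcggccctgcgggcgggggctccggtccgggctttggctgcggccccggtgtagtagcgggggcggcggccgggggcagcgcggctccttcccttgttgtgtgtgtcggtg
Sms, GRCm38.p6 chrX:157492238-157492537, minus strand: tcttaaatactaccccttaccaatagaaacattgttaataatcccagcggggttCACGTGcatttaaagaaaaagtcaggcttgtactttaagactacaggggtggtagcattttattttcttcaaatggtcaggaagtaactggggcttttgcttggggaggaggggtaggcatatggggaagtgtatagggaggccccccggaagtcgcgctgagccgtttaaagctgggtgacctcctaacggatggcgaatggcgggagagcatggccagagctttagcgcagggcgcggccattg
The E-box of Max spans the start, beginning 3 bases before it, and those of Mnt, Sms and Mxd4 begin 123, 196 and 219 bases before the start. A different RefSeq start of Sms had no CACGTG in its window, nor had the windows of Mxd1, Mxi1, Odc1 and Amd1. A match of letters is a description and not a binding site.

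Total counts ranged from 10758571 to 24119489 per library and were highest in the PI groups, where the lowest was 14895843. Normalized counts are counts scaled by the TMM method to a common library size, and the 10 members all passed the filter that left 17240 genes for testing. The libraries differed in ways that the groups do not name. The summed normalized count of 9 neutrophil markers was 73.4 to 179 in N0 and 132 to 364 in NAg, against 1680 to 2976 in T0 and 2164 to 3981 in TAg, and 395 to 670.1 in TPI against 62.8 to 172 in NPI (all 9 were detected in each group but NPI, where 4 were at 0). That of 9 erythroid markers reached 2357 in 1 T0 library, against at most 227 in N0. The sum of 8 CD4+ T cell markers (CD3 chains, Cd4 and others), all of them present in every group, was 32862 to 34369 in N0, 31138 to 35722 in T0, 16517 to 18225 in NAg, 22479 to 25527 in TAg, 50948 to 56856 in NPI and 56445 to 59399 in TPI. That of 8 proliferation markers was 873 to 1699.8 in N0 and 2381 to 2852 in T0, 1339 to 1583 in NAg and 2271 to 3356 in TAg, and 1152 to 1421 in NPI and 1496 to 1779 in TPI, with all 8 detected in every group. Reads of 4 Y-linked genes were abundant (5111 or more) in all PI libraries, T0 replicates 1 and 2 and TAg replicate 3, and at most 18 in the others, so the presence of Y-linked reads cannot be told apart from PI treatment in NPI against N0. In bulk RNA, fewer cells of a type and less RNA per cell cannot be told apart.

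**Figure D1:**
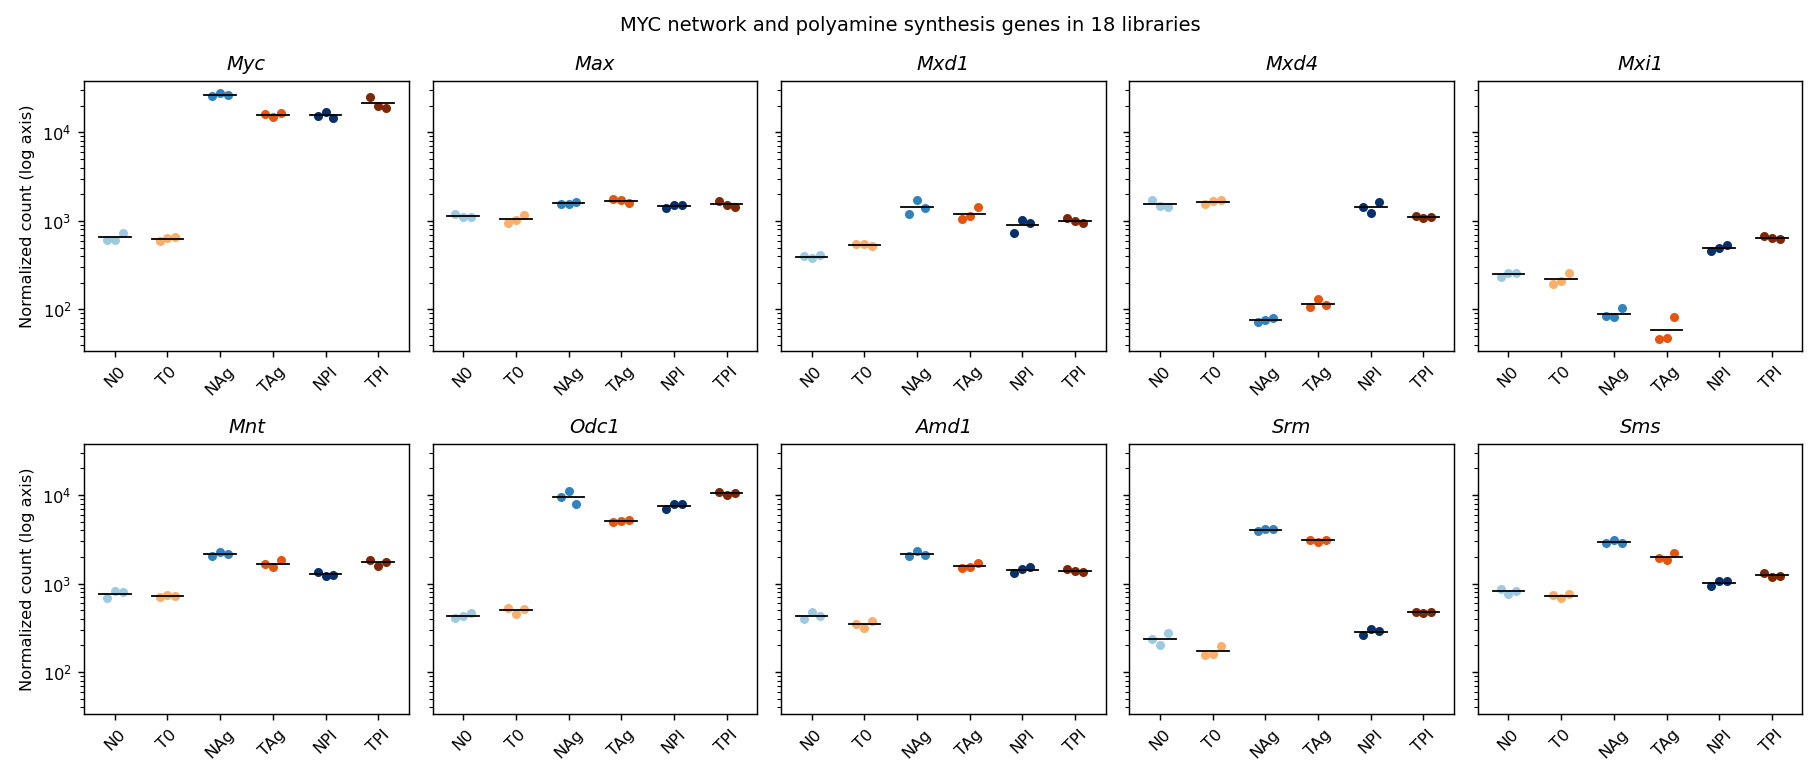
Normalized count (log axis) of each member in the 18 libraries, grouped as N0, T0, NAg, TAg, NPI and TPI, with a point for each library and a line at the mean. Myc and Odc1 stood far above the untreated groups after Ag and after PI, Srm stood that far only after Ag, and Mxd4 fell to between 71.9 and 131 after Ag.

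The response of naive cells to antigen in vivo was read from NAg against N0. After Ag all 10 members had changed at an adjusted p under 0.05, the threshold for a call, with 8 higher and 2 lower. Of all tested genes 65.5% were called in this comparison (32.1% higher and 33.4% lower), so a call alone sets no member apart. By size, 7 of the 8 rises and both falls were at least 2-fold with a mean above 50 in the higher group, as were 14.2% (higher) and 16.2% (lower) of all tested genes. None of the 10 overlapped between the replicates of N0 and NAg, as was so for 68.1% of all tested genes. The median log2 fold change of the members was 1.87, and that of all tested genes was 0.0.

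Myc was counted at 611, 612 and 734 in the N0 libraries and at 25485, 27576 and 26059 in NAg. All NAg libraries lay far above all N0 libraries. The rise was 40.4-fold (log2 fold change 5.34, SE 0.12, edgeR adjusted p = 2.21e-21). Max, the partner that MYC shares with its competitors, moved from 1100.3 to 1189 in N0 to between 1533 and 1652 in NAg, without overlap. Its rise was small beside that of Myc, with a log2 fold change of 0.48 (SE 0.08, adjusted p = 6.52e-06), and it was 0.08 (adjusted p = 0.298) when libraries were scaled by their totals alone.

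The repressor genes split in direction. Mxd4, which encodes a repressor typical of resting and differentiated cells, was counted at 1736, 1471 and 1432 in N0 and at 71.9, 76.4 and 79.2 in NAg. No pair of libraries from the 2 groups came near each other, and the fall was 20.4-fold (log2 fold change -4.35, SE 0.12, adjusted p = 7.75e-20). Mxi1 fell from 231, 259 and 259 to 83.9, 82.2 and 103, a log2 fold change of -1.47 (SE 0.15, adjusted p = 7.39e-09). Mxd1 and Mnt went the other way: Mxd1 rose from 396 ± 12.6 to 1451 ± 267 (SD, n = 3), a log2 fold change of 1.87, and Mnt, the most widely expressed MAX-binding repressor, from 769 ± 71.6 to 2147 ± 121, a log2 fold change of 1.48. Neither overlapped between N0 and NAg.

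All 4 enzyme genes of polyamine synthesis rose after Ag in naive cells. Odc1 was counted at 407, 428 and 460.1 in N0 and at 9543, 11039 and 7861 in NAg, a 21.9-fold rise (log2 fold change 4.46, SE 0.11, adjusted p = 1.21e-20). Srm went from 234, 204 and 279 to 3890.4, 4101 and 4162, a 16.9-fold rise (log2 fold change 4.08, SE 0.10, adjusted p = 9.57e-21). For each gene the lowest NAg library was more than 10 times as high as the highest N0 library. The rises of Amd1 (log2 fold change 2.32, SE 0.09) and Sms (1.86, SE 0.08) were smaller, and their libraries did not overlap between the groups either.

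The same comparison in tolerized cells, TAg against T0, also called all 10 members, in the same directions as in naive cells, where 59.8% of all tested genes were called (29.9% higher and 29.8% lower). At the 2-fold limit 7 members were higher and 2 lower, beside 12.1% and 11.3% of all tested genes. Myc was counted at 589, 647 and 652 in T0 and at 16015, 14819 and 16520 in TAg, a 25.1-fold rise (log2 fold change 4.65, SE 0.11). Srm rose 17.9-fold (log2 fold change 4.16, SE 0.10) from 157, 162 and 198 to 3129, 2987 and 3121. Odc1 rose 10.2-fold (log2 fold change 3.34, SE 0.10) from 533, 450.4 and 517 to 4990.3, 5044 and 5204. Mxd4 fell 14.2-fold (log2 fold change -3.82, SE 0.11), from 1542, 1657 and 1740 to 106, 131 and 113, and Mxi1 fell from 193, 210.2 and 257 to 46.2, 47.7 and 83.0. None of the 10 members overlapped between T0 and TAg, as was the case for 64.5% of all tested genes. T0 libraries 1 and 2 and TAg library 3 had Y-linked reads, and with the Y-linked level as a covariate all 10 were still called.

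PI treatment bypasses the receptor, and NPI against N0 asked how far the same genes respond to it. 9 of the 10 members were called, all of them higher, where 61.4% of all tested genes were called (28.6% higher and 32.7% lower). 4 of them, Myc, Odc1, Amd1 and Mxd1, passed the 2-fold limit upward and none downward, beside 10.1% and 10.3% of all tested genes. The replicates of 8 members did not overlap, as was so for 66.4% of all tested genes. Myc reached 15112, 16956 and 14704 (log2 fold change 4.58, SE 0.11, adjusted p = 3.62e-20) and Odc1 7011, 7922 and 7900.1 (4.14, SE 0.11, adjusted p = 8.88e-20). Both were far above every N0 library. Amd1 rose by a log2 fold change of 1.74 (SE 0.09), and Mxi1, lower after Ag, was higher after PI at 459, 494 and 537 (0.99, SE 0.13, adjusted p = 6.95e-07).

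Srm stood out among the enzyme genes, with 260.0, 304 and 288 in NPI against 204 to 279 in N0. The groups overlapped, and the log2 fold change of 0.25 (SE 0.10, adjusted p = 0.0342) lost its call in 4 of the 6 fits that left out 1 library, being 0.19 without N0 replicate 1 (adjusted p = 0.167), 0.10 without N0 replicate 2 (0.42), 0.20 without NPI replicate 2 (0.128) and 0.24 without NPI replicate 3 (0.0825). Sms (log2 fold change 0.32, SE 0.08) and Max (0.38, SE 0.08) were also little changed. For these 3 genes the direction depended on scaling. By library totals alone the median of all tested genes was -0.65, against -0.06 with TMM. The log2 fold changes were then -0.33 for Srm, -0.26 for Sms and -0.20 for Max, each above that median of -0.65. Mnt (0.72, SE 0.08) was at 0.15 (adjusted p = 0.117) by library totals. Mxd4, at 1417, 1223 and 1620 in NPI, overlapped N0 and was not called (log2 fold change -0.12, 95% confidence interval -0.31 to 0.07, adjusted p = 0.252), but it was at -0.70 (adjusted p = 1.66e-07) by library totals and at -0.23 (adjusted p = 0.0414) without NPI replicate 3. For Sms, an X-linked gene, the log2 fold change was 0.26 (adjusted p = 0.064) with the Y-linked level as a covariate. With scores of the erythroid and myeloid markers as covariates, Srm (0.28, adjusted p = 0.21) and Sms (0.33, adjusted p = 0.0756) were not called. Srm was not called in a fit of N0 and NPI alone either (0.29, adjusted p = 0.0568).

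In tolerized cells, TPI against T0 called all 10 members, 9 higher and 1 lower, where 68.3% of all tested genes were called (32.0% higher and 36.3% lower). At the 2-fold limit 6 were higher and none lower, beside 13.3% and 13.7% of all tested genes, and no member overlapped between the groups, as was so for 72.5% of all tested genes. Myc was counted at 25321, 19973 and 18947 in TPI, a 34.0-fold rise (log2 fold change 5.09, SE 0.11), and Odc1 at 10848, 9918 and 10606, a 20.9-fold rise (4.39, SE 0.11). Srm reached 474, 469.8 and 482, a log2 fold change of 1.47 (SE 0.10, adjusted p = 2.4e-12), with all TPI libraries above all T0 libraries. Mxi1 rose to 668, 648 and 627 (log2 fold change 1.56, SE 0.13), and Mxd4 fell to 1121, 1070.1 and 1093 (-0.59, SE 0.09). With TPI set against only the T0 libraries that had Y-linked reads, all 10 calls were kept, with log2 fold changes of 5.085 for Myc, 1.55 for Srm, 0.77 for Sms and -0.57 for Mxd4. Scaling by library totals alone put the median of all tested genes at -0.92, left Mxd1 at 0.08 (adjusted p = 0.596) and turned Max to -0.25 and Sms to -0.03, both above that median. With scores of the erythroid and myeloid markers as covariates, Mxd1 (0.57, adjusted p = 0.251) and Mxd4 (-0.74, adjusted p = 0.0621) were not called.

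**Figure D2:**
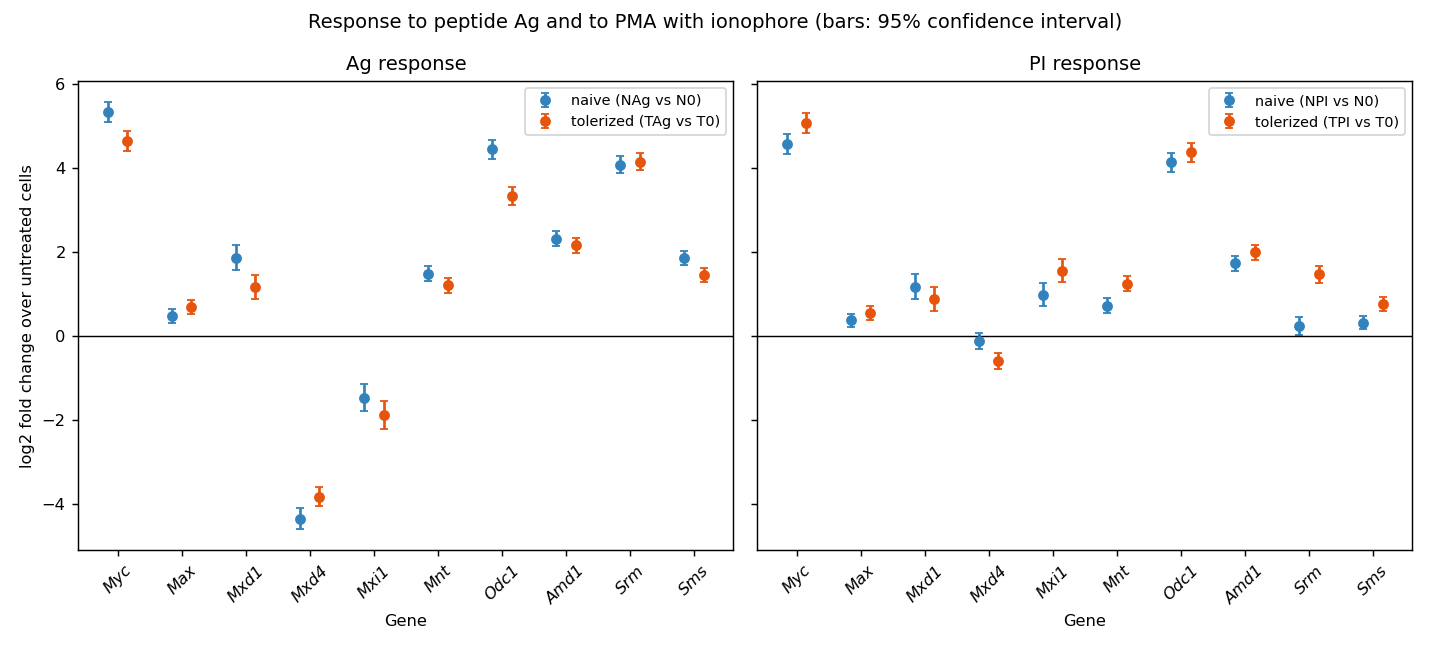
Log2 fold change over untreated cells of each member after Ag (left) and after PI (right), in naive (blue) and tolerized (orange) cells, with 95% confidence intervals. Srm rose by 4.08 and 4.16 after Ag but by 0.25 and 1.47 after PI, and Mxd4 fell by 4.35 and 3.82 after Ag, whereas after PI it was at -0.12 in naive cells, which was not called, and at -0.59 in tolerized cells.

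The stimuli were then set side by side in cells of the same state, in comparisons added after the counts had been seen. In naive cells, NPI against NAg called 9 of 10 members, 2 higher and 7 lower, where 64.4% of all tested genes were called (33.5% higher and 31.0% lower). At the 2-fold limit 2 were higher and 2 lower, beside 14.3% and 13.1% of all tested genes, and 9 did not overlap between the groups, beside 68.5%. Srm was lower by 14.3-fold after PI (log2 fold change -3.84, SE 0.10, adjusted p = 5.52e-20) and Sms by 2.91-fold (-1.54, SE 0.08), whereas Odc1 differed by only -0.32 (SE 0.09), its libraries overlapped, and the call was lost without NAg replicate 2 (-0.19, adjusted p = 0.0634). Myc was lower by a log2 fold change of -0.76 (SE 0.09). Mxd4 was 18.7-fold higher after PI (4.23, SE 0.12) and Mxi1 5.51-fold higher (2.46, SE 0.15), and neither overlapped between NPI and NAg. Max was not called (-0.10, 95% confidence interval -0.26 to 0.06), but it was by library totals (-0.27, adjusted p = 0.000584), and its sign turned to 0.08 with the Y-linked level as a covariate, a fit in which Odc1 was not called (-0.31, adjusted p = 0.0602).

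In tolerized cells, TPI against TAg called 6 members, 4 higher and 2 lower, where 63.8% of all tested genes were called (31.5% higher and 32.3% lower). At the 2-fold limit 3 were higher and 1 lower, beside 12.4% and 13.1% of all tested genes, and 7 did not overlap between the groups, beside 68.7%. Srm was again lower after PI (log2 fold change -2.69, SE 0.09), as was Sms (-0.68, SE 0.08). Mxd4 (3.23, SE 0.11) and Mxi1 (3.44, SE 0.16) were higher, and so was Odc1, at 2.06-fold (1.04, SE 0.09). Myc was higher by 0.44 (SE 0.09), a difference that was -0.03 (adjusted p = 0.76) by library totals, which put the median of all tested genes at -0.46 here, and 0.312 (adjusted p = 0.331) with the erythroid and myeloid scores as covariates. Mxd1, Mnt, Amd1 and Max were not called, with 95% confidence intervals that all lay between -0.56 and 0.22. Mxd1 was called without TAg replicate 1 (-0.35, adjusted p = 0.0377) and Max without TPI replicate 1 (-0.19, adjusted p = 0.0451), while Mnt turned from 0.05 to -0.01 without TAg replicate 2. By library totals Amd1 (-0.64), Max (-0.61), Mxd1 (-0.75) and Mnt (-0.42) were all called lower. All NAg and 2 TAg libraries came from mice without Y-linked reads and all PI libraries from mice with them, so sex is confounded with the stimulus in naive cells and nearly so in tolerized cells. Ag was given in vivo and PI in culture, and these cannot be told apart from the stimuli.

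Levels were compared between genes per kilobase of exon, as RPKM (reads per kilobase scaled to the TMM library size), with means ± SD over 3 libraries. In N0, Max was the highest member at 41.4 ± 1.73 RPKM, followed by Mxd4 at 29.2 ± 3.13 and Myc at 17.6 ± 1.90. Odc1 (12.4 ± 0.767), Mnt (12.2 ± 1.13), Srm (10.9 ± 1.73), Sms (9.95 ± 0.733) and Amd1 (9.88 ± 0.928) were neighbours whose differences in turn were within their spread, and Mxd1 (6.22 ± 0.197) and Mxi1 (3.25 ± 0.211) were lowest. In NAg the order was led by Myc at 711 ± 29.1 RPKM, Odc1 at 273 ± 45.7 and Srm at 186 ± 6.52, with Mxd4 (1.43 ± 0.0692) and Mxi1 (1.17 ± 0.153) at the end. TAg kept Myc first at 425 ± 23.5, followed by Odc1 (146 ± 3.19) and Srm (141 ± 3.66), and Srm per Odc1 was below 1 in all 3 TAg libraries. In NPI, Myc (420.0 ± 32.3) and Odc1 (219 ± 14.9) again came first, followed by Max (54.0 ± 2.53), while Srm (12.99 ± 1.01) was near Sms (12.4 ± 0.936) and Mxd1 (14.1 ± 2.48). In TPI, Myc was at 577 ± 92.2, Odc1 at 300.5 ± 13.9 and Srm at 21.8 ± 0.285.

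Ratios of these RPKM values within each library were taken for some pairs of members. Ratios of Myc to Mxd1 and to Mnt, which rose after Ag, were not taken. Myc per Mxd4 was 0.503 to 0.732 in N0 and 0.536 to 0.558 in T0. It reached 470.2 to 516 in NAg and 161 to 217 in TAg, against 12.96 to 19.8 in NPI and 24.8 to 32.3 in TPI. The 4 stimulated groups did not overlap in Myc per Mxd4, and NAg was highest. Myc per Mxi1 did not part the states in this way. It was 521.3 to 693.5 in NAg and 411.7 to 716.3 in TAg, which overlapped. In NPI it was 56.68 to 71.02 and in TPI 62.54 to 78.37, which overlapped too. Srm per Odc1 was 0.468 to 0.965 in the untreated groups and 0.592 to 0.999 in the Ag groups, but 0.0580 to 0.0755 in the PI groups. No PI library came near any other library in this ratio.

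**Figure D3:**
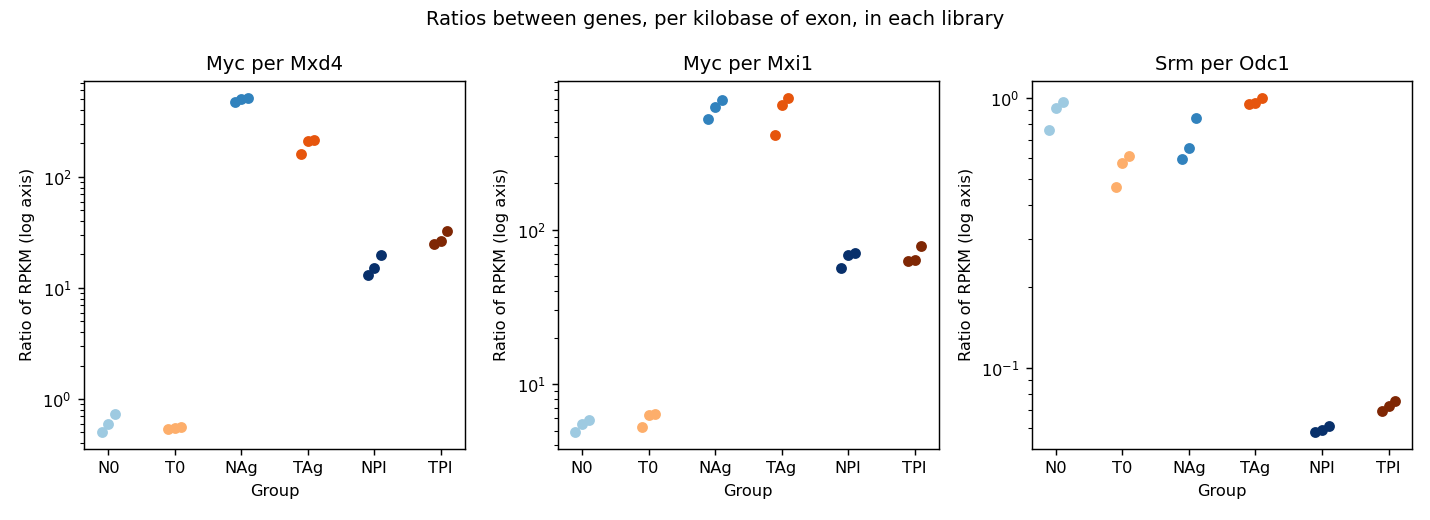
Ratio of RPKM values (log axis) within each library for Myc per Mxd4, Myc per Mxi1 and Srm per Odc1 in the 6 groups, with a point for each of the 3 libraries, drawn from lowest to highest. Myc per Mxd4 was at most 0.732 at rest and at least 470.2 in NAg, and Srm per Odc1 was at most 0.0755 in the PI groups and at least 0.468 elsewhere.

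The states were first compared at rest. T0 against N0 called 3 of 10 members, 1 higher and 2 lower, where 20.4% of all tested genes were called (8.42% higher and 12.0% lower). No member passed the 2-fold limit, which 2.61% of all tested genes passed upward and 0.644% downward. Mxd1 was higher in T0 (524.6 to 552 against 382 to 407, log2 fold change 0.45, SE 0.14, adjusted p = 0.0317), Srm was lower (157 to 198 against 204 to 279, -0.48, SE 0.10, adjusted p = 0.00196) and Amd1 was lower (315 to 383 against 394 to 475, -0.30, SE 0.09, adjusted p = 0.0185). These 3 did not overlap between the groups, as was so for 35.0% of all tested genes. Myc was not called, at -0.05 (95% confidence interval -0.26 to 0.16), and its sign turned to 0.06 by library totals and to 0.04 without N0 replicate 3. The call of Mxd1 was lost in all 6 fits that left out 1 library (adjusted p = 0.0509 to 0.101) and with no low-count filter (0.45, adjusted p = 0.0633), and that of Amd1 without N0 replicate 2 (-0.24, adjusted p = 0.1) or T0 replicate 2 (-0.24, adjusted p = 0.0937). No member was called with scores of the erythroid and myeloid markers as covariates, a fit in which 26 of all 17240 tested genes were called higher and 29 lower. In that fit Mxd1 (0.675, SE 0.318) and Srm (-0.515, SE 0.205) were at least as far from 0 as without the scores, with larger errors. Amd1 was at -0.22 (SE 0.191). With the Y-linked level as a covariate Srm was called (-0.415, SE 0.119), Amd1 kept its value with a larger error (-0.305, SE 0.109) and Mxd1 was at 0.295 (SE 0.159). Of the 8 proliferation markers 6 were called higher in T0 than in N0, and their part in the result was not tested. In a fit of N0 and T0 alone only Mxd1 was called, with Srm at -0.40 (adjusted p = 0.0768).

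The states were next compared after Ag. TAg against NAg called 8 of 10 members, 7 lower and 1 higher, where 39.4% of all tested genes were called (20.9% higher and 18.5% lower). Odc1 was lowest relative to NAg, at 4990.3 to 5204 in TAg against 7861 to 11039 in NAg (log2 fold change -0.90, SE 0.09, adjusted p = 5.77e-08), followed by Myc at 14819 to 16520 against 25485 to 27576 (-0.74, SE 0.09, adjusted p = 1.46e-06). Sms (-0.57), Amd1 (-0.46), Srm (-0.40) and Mnt (-0.36) were lower too, each without overlap between TAg and NAg. Mxi1 was lower at -0.60 (SE 0.18), but TAg replicate 3, at 83.0, overlapped NAg, and the call was lost without NAg replicate 3 (-0.48, adjusted p = 0.0679), TAg replicate 1 (-0.44, adjusted p = 0.076) or TAg replicate 2 (-0.47, adjusted p = 0.0646). Mxd4 was the member that was higher in TAg, at 106 to 131 against 71.9 to 79.2 (0.61, SE 0.14, adjusted p = 0.00107). None of the 10 reached 2-fold, which 3.61% of all tested genes did upward and 2.05% downward. For 7 members the groups did not overlap, as was so for 47.7% of all tested genes.

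Of the 8 CD4+ T cell markers 6 were called higher in TAg than in NAg and none lower, as were 6 of the 8 proliferation markers, and their part in these differences was not tested. The neutrophil marker sums were also higher in TAg. With the erythroid and myeloid scores as covariates 6 of the 10 were called, Mnt (-0.16, adjusted p = 0.41) and Mxi1 (-0.70, adjusted p = 0.0965) being lost. Of all 17240 tested genes 1604 were called higher and 1393 lower in that fit. Between the TAg and NAg libraries without Y-linked reads, that is without TAg replicate 3, Odc1 was at -0.92, Myc at -0.775, Sms at -0.645 and Mxd4 at 0.64, and Mxd1 was called as well (-0.40, adjusted p = 0.0257). Mxd1 was also called without NAg replicate 1 (-0.37, adjusted p = 0.0289). By library totals, which put the median of all tested genes at 0.20, Mnt (-0.18, adjusted p = 0.0795) and Mxi1 (-0.415, adjusted p = 0.0588) were not called and Max was higher (0.28, adjusted p = 0.000918).

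After PI the members that were called differed between the states in the direction opposite to that after Ag. TPI against NPI, in libraries that all had Y-linked reads, called 7 of 10, with 6 higher and 1 lower, where 37.9% of all tested genes were called (18.2% higher and 19.7% lower). Srm was higher at 469.8 to 482 against 260.0 to 304 (log2 fold change 0.74, SE 0.09, adjusted p = 9.81e-07). Myc (0.46, SE 0.09, adjusted p = 0.000407) and Odc1 (0.46, SE 0.09, adjusted p = 0.000285) were higher, as were Mnt (0.45), Mxi1 (0.38) and Sms (0.28). Mxd4 was lower, at 1070.1 to 1121 against 1223 to 1620 (-0.38, SE 0.09, adjusted p = 0.00184). None of these 7 overlapped between TPI and NPI, as was so for 50.5% of all tested genes, and none reached 2-fold, which 3.38% did upward and 2.22% downward. The call of Mxi1 was lost without NPI replicate 1 (0.33, adjusted p = 0.0888) or 2 (0.38, adjusted p = 0.0542) and without TPI replicate 1 (0.38, adjusted p = 0.0536) or 2 (0.38, adjusted p = 0.0521). With the erythroid and myeloid scores as covariates 4 calls were left, those of Myc, Odc1, Srm and Mnt. Of all 17240 tested genes 1787 were called higher and 1365 lower in that fit. By library totals Mxi1 (0.27, adjusted p = 0.0891) and Sms (0.17, adjusted p = 0.0823) were not called.

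Whether the responses themselves differed between the states was tested as the response of tolerized cells minus that of naive cells. In the response to Ag 5 of 10 members were called, 1 higher and 4 lower, where 21.7% of all tested genes were called (14.6% higher and 7.09% lower). The rise of Odc1 was smaller in tolerized cells by -1.11 on the log2 scale (SE 0.14, adjusted p = 2.81e-06), that of Mxd1 by -0.71 (SE 0.19, adjusted p = 0.0124), that of Myc by -0.69 (SE 0.14, adjusted p = 0.000779) and that of Sms by -0.41 (SE 0.11, adjusted p = 0.0103). Odc1 was the 1 member past 2-fold, which 3.05% of all tested genes passed upward and 2.23% downward. For Mxd1, TAg and NAg overlapped and did not differ by a call (-0.26, adjusted p = 0.124). Its level was higher in T0 than in N0 (0.45), a call lost in all 6 fits that left out 1 library. The fall of Mxd4 was shallower by 0.52 (SE 0.17, adjusted p = 0.0248). Srm differed by 0.08 (95% confidence interval -0.19 to 0.35) and Amd1 by -0.15 (-0.40 to 0.10), and neither was called. The call of Mxd4 was lost with DESeq2 (0.48, adjusted p = 0.0566), without NAg replicate 1 (0.49, adjusted p = 0.0581) and without TAg replicate 2 (0.435, adjusted p = 0.0928). It was also lost with the erythroid and myeloid scores as covariates (0.458, adjusted p = 0.104). Of the 8 CD4+ T cell markers 6 were called higher in this difference and none lower, and their part in it was not tested. Without TAg replicate 3, Mxi1 (-0.755, adjusted p = 0.00978) and Mnt (-0.355, adjusted p = 0.0332) were called lower, and without T0 replicate 3, Max was called higher (0.32, adjusted p = 0.0238). T0 replicates 1 and 2 and TAg replicate 3 had Y-linked reads, and no N0 or NAg library did. Sex is therefore partly confounded with the difference in Ag response. With the Y-linked level as a covariate the 5 calls were kept.

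In the response to PI 6 of 10 members were called, 5 higher and 1 lower, where 20.2% of all tested genes were called (12.7% higher and 7.52% lower). The rise of Srm was larger in tolerized cells by 1.22 (SE 0.14, adjusted p = 1.08e-06), that of Mxi1 by 0.56 (SE 0.19, adjusted p = 0.036), that of Mnt by 0.53 (SE 0.12, adjusted p = 0.00202), that of Myc by 0.51 (SE 0.14, adjusted p = 0.0104) and that of Sms by 0.45 (SE 0.11, adjusted p = 0.00659). Srm was the 1 member past 2-fold, which 1.75% of all tested genes passed upward and 1.47% downward. For Srm, TPI against NPI was at 0.74, under 2-fold, and T0 against N0 was at -0.48. The lower level in T0 is thus part of this difference, and its call was lost in a fit of N0 and T0 alone (-0.40, adjusted p = 0.0768). The difference for Mxd4 was -0.47 (SE 0.13, adjusted p = 0.0107). Odc1 was not called (0.25, 95% confidence interval -0.04 to 0.53). Scaling by library totals put the median of all tested genes at -0.26 and left only Srm and Mxd4 called. The difference for Myc was also lost in a fit of the 4 groups alone (0.425, adjusted p = 0.052) and with the erythroid and myeloid scores as covariates (0.465, adjusted p = 0.051). The call of Mxi1 was lost in 9 of the 12 fits that left out 1 library (adjusted p = 0.052 to 0.0947), all but those without N0 replicate 1, T0 replicate 3 or NPI replicate 3, and that of Mxd4 without NPI replicate 3 (-0.36, adjusted p = 0.0503), while Amd1 was called without T0 replicate 3 (0.35, adjusted p = 0.04). With covariates, the call of Mxi1 was also lost for the Y-linked level (0.592, adjusted p = 0.0609) and for the erythroid and myeloid scores (0.623, adjusted p = 0.0695). All PI libraries and T0 replicates 1 and 2 had Y-linked reads, and no N0 library did. Sex is therefore partly confounded with the difference in PI response. N0 and T0 enter both differences, so those for Ag and PI are not independent of each other.

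**Figure D4:**
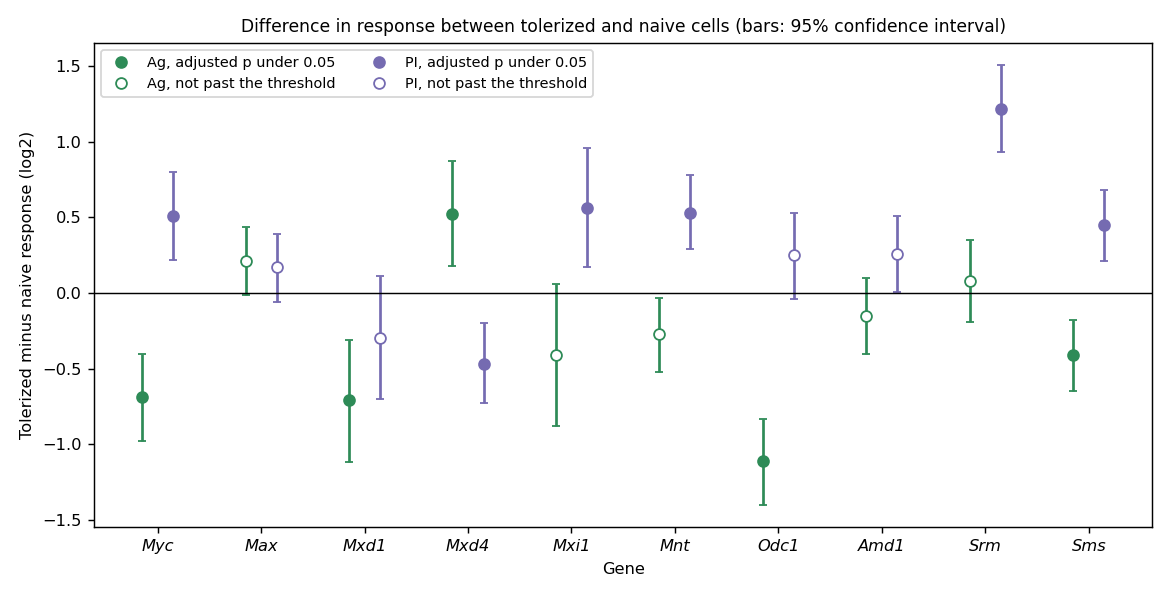
Difference in response between tolerized and naive cells (log2 scale, positive where the tolerized response was higher) for Ag (green) and PI (purple), with 95% confidence intervals and filled points for an adjusted p under 0.05. Odc1 lay at -1.11 for Ag and Srm at 1.22 for PI, and Myc, Mxd4 and Sms were past the threshold for both stimuli with opposite signs.

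Other genes of the pathway were taken from lists chosen with earlier results of these data known. Of 24 known MYC target genes 23 could be tested (Tfap4 was not matched). After Ag all 23 were called higher in naive cells (median log2 fold change 3.06, range 1.51 for Cdk4 to 6.08 for Hk2) and in tolerized cells (median 2.73, range 1.5 to 4.97). Hk2, the hexokinase of activated cells, went from 47.6 ± 11.97 in N0 to 3242 ± 616 in NAg, the amino acid transporter gene Slc7a5 from 390.2 ± 4.76 to 9547 ± 479 (log2 fold change 4.61) and the transferrin receptor gene Tfrc from 891 ± 20.9 to 20721 ± 2868 (4.54). Of all tested genes 32.1% and 29.9% were called higher in these comparisons. After PI the same list was divided, with 15 higher and 5 lower in naive cells (median 0.65) and 17 higher and 3 lower in tolerized cells (median 1.13), where 61.4% and 68.3% of all tested genes were called. The pyrimidine synthesis gene Cad, picked as an example after its values were seen, was at 1081 ± 75.3 in N0, 5707 ± 279 in NAg and 776 ± 47.6 in NPI, and it was lower in TPI than in T0 by a log2 fold change of -0.92 (SE 0.08). Gnl3, a nucleolar gene, rose in TPI by 3.02 (SE 0.09).

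NPI was lower than NAg in all 23 MYC target genes (median -2.42), and TPI was lower than TAg in all 23 (median -1.62), where 31.0% and 32.3% of all tested genes were called lower. TAg was lower than NAg in 16 and higher in none (median -0.40), where 39.4% of all tested genes were called and 18.5% were lower, with Tfrc (-1.02), Mthfd2 (-0.80), an enzyme gene of mitochondrial folate metabolism, and Ncl (-0.75), the nucleolin gene, at the lower end. TPI was higher than NPI in 11 and lower in 2 (median 0.20), where 37.9% of all tested genes were called and 18.2% were higher. In the difference in Ag response 6 were lower and none higher, Tfrc (-1.15), Hk2 (-1.12) and Ncl (-0.71) by most, and in that of PI 11 were higher and 1 lower. Of all tested genes 21.7% were called in the first of these differences (7.09% lower) and 20.2% in the other (12.7% higher).

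**Figure D5:**
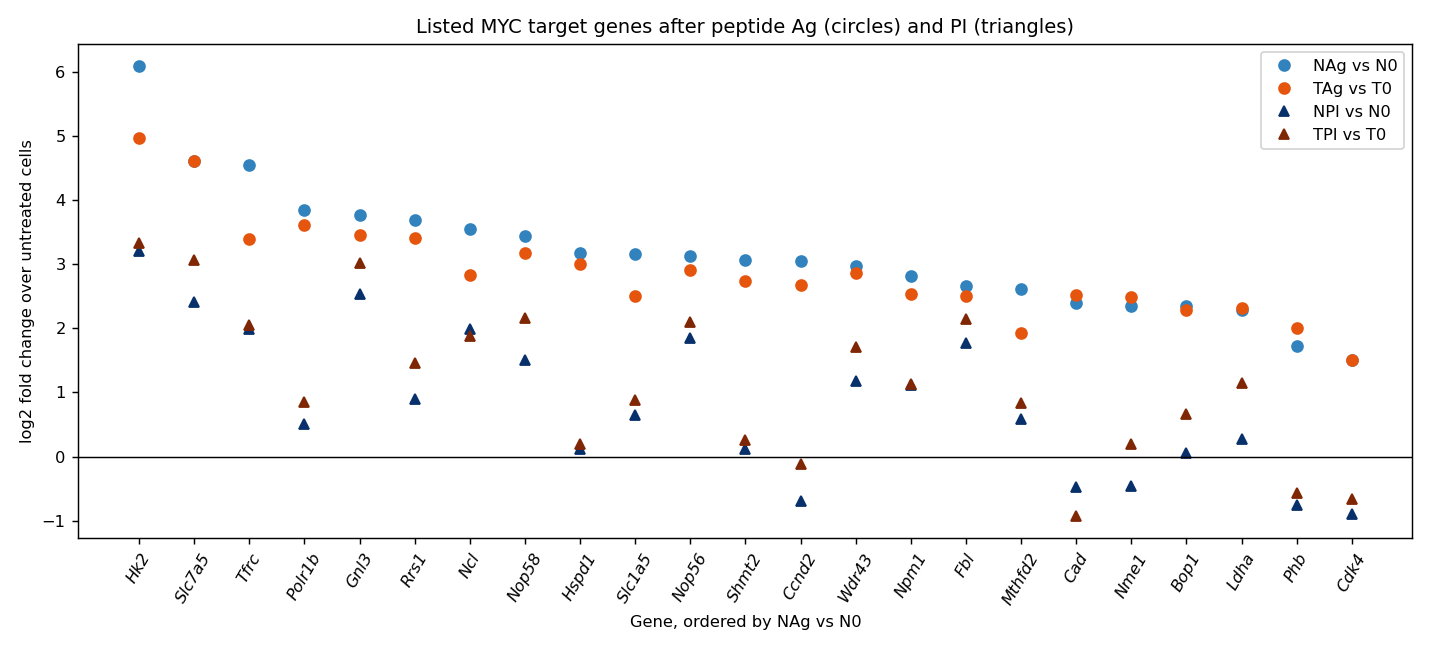
Log2 fold change over untreated cells of the 23 tested MYC target genes, ordered by NAg against N0, after Ag (circles) and PI (triangles) in naive (blue) and tolerized (orange and brown) cells. After Ag every gene was at 1.5 or more, and after PI the values ran from -0.92 for Cad to 3.33 for Hk2.

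Among partners of the network outside the 10 members, 6 of 7 were tested, and 2 were higher and 2 lower in NAg than in N0, a share near the 65.5% of all tested genes that were called. Mlxip, a partner of MLX, rose (log2 fold change 1.53, SE 0.07), and Mlx (-0.97, SE 0.10) and, at low counts, Mycl1 (-1.79, SE 0.63) fell. Mlxip was lower in TAg than in NAg (-0.68, SE 0.07) and Mlx was higher (0.60, SE 0.10), and the difference in Ag response was -1.07 (SE 0.10) and 0.73 (SE 0.13). Mlx fell in TPI (-1.55, SE 0.10), where Mlxip rose (0.84, SE 0.07) and Mycl1 fell (-1.96, SE 0.54). Mycn, the neural paralog of Myc, stayed at no more than 24 counts in any library, with 1.67 ± 1.13 in N0 and 19.5 ± 4.07 in T0, and was higher in TAg than in NAg (1.68, SE 0.50).

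Of 9 cofactors of MYC, 7 were higher and 2 lower in NAg than in N0, beside 32.1% and 33.4% of all tested genes (65.5% in all), with Ruvbl1 (2.71, SE 0.09), Wdr5 (2.0, SE 0.07) and Ruvbl2 (1.88, SE 0.09) highest. RUVBL1 and RUVBL2 are paired ATPases of chromatin complexes and WDR5 helps MYC to bind chromatin. Ruvbl2 was lower in TPI than in T0 (-1.17, SE 0.09), where Zbtb17, the MIZ1 gene, rose by 1.82 (SE 0.10) and the acetyltransferase gene Kat5 by 1.61 (SE 0.09). In TAg against NAg 2 were higher and 5 lower, beside 20.9% and 18.5% of all tested genes, with Zbtb17 at -0.52, Kat5 at -0.51 and Smarcb1, a SWI/SNF subunit gene, at 0.48. Smarcb1 (0.58) and Kat2a (0.49) also differed in their Ag response. Of 7 corepressor genes used by MXD and MNT, 3 were higher and 2 lower in NAg, a share near the 65.5% of all tested genes, with Sap30 at 2.17 (SE 0.18), Hdac2 at 1.37 (SE 0.08) and Hdac1 at -0.85 (SE 0.06). In TAg against NAg Hdac2 was at -0.40 and Hdac1 at 0.19. In TPI, Sap30 (2.18), Hdac1 (0.81) and Ncor1 (0.69) were highest among 4 that rose (32.0% of all tested genes did). No corepressor gene was called in the difference in Ag response, where 21.7% of all tested genes were. With 7 genes this sets the list little apart.

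Of 9 genes that set the turnover of the MYC protein, 6 were higher and 3 lower in NAg than in N0, beside 32.1% and 33.4% of all tested genes (65.5% in all). The kinase gene Pim1 rose from 1380 ± 344 to 19355 ± 228 (log2 fold change 3.81, SE 0.15), whereas Gsk3b, the kinase that marks MYC for decay, fell from 2908 ± 261 to 718 ± 48.1 (-2.02, SE 0.09). In TAg against NAg Pim1 was lower (-0.81, SE 0.13), and Gsk3b (0.80, SE 0.09) and the ubiquitin ligase gene Skp2 (0.92, SE 0.19) were higher. Their Ag responses differed between the states, by -1.23 for Pim1, 0.93 for Gsk3b and 0.87 for Skp2. Pim1 also rose in TPI (4.45, SE 0.15), and Skp2 fell (-2.20, SE 0.20).

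Around the polyamine enzymes, 9 of 13 listed regulators of synthesis, breakdown and transport were tested. In NAg against N0, 6 were higher and 3 lower, beside 32.1% and 33.4% of all tested genes (65.5% in all), with Amd2 at 2.18 (SE 0.18), which shares its sequence with Amd1, the lysosomal polyamine exporter gene Atp13a2 at -2.32 (SE 0.12) and the polyamine oxidase gene Paox at -2.06 (SE 0.22). Of the genes of polyamine breakdown, Smox and Sat1 were highest after PI, whereas Paox was lower in NPI (65.9 ± 4.05) than in N0 (108 ± 8.63). Smox, the spermine oxidase gene, was at 116 ± 24.0 in N0, 180.0 ± 24.7 in NAg and 1177 ± 35.9 in NPI, and Sat1, the spermidine and spermine acetyltransferase gene, at 1171 ± 58.9, 2075 ± 199 and 6948 ± 401. In TPI against T0 they rose by 3.18 (SE 0.13) and 3.02 (SE 0.09), and Amd2 by 2.40 (SE 0.19). Smox was lower in TAg than in NAg (-1.56, SE 0.15), as was Amd2 (-0.68), and Atp13a2 was higher (0.70). The Ag response differed for Smox (-1.42, SE 0.21), Atp13a2 (0.64) and Sat1 (-0.44).

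Of 15 listed genes for polyamine precursors, methionine salvage and hypusine, the modification made from spermidine, 14 were tested, and 7 were higher and 3 lower in NAg than in N0, a share near the 65.5% of all tested genes that were called. Eif5a, the protein that carries hypusine, rose by 3.13 (SE 0.08), Mtap, which recycles the by-product of Srm and Sms, by 3.02 (SE 0.09), and Mat2a, which makes S-adenosylmethionine, by 2.50 (SE 0.09). Mtap was at 548 ± 4.78 in N0, 4448 ± 435 in NAg and 403 ± 14.6 in NPI. In TPI against T0, Oat, an ornithine gene, rose by 1.64 (SE 0.08) and Mat2a by 1.61 (SE 0.09), and Arg1, which makes ornithine, went from 1.55 ± 1.45 to 73.6 ± 34.0. Arg2 (2.22, SE 0.52), Apip (0.97, SE 0.28) and Mat2b (0.66, SE 0.08) were higher in TAg than in NAg, the first of these at no more than 37 counts in any library. Mat2b (0.68) and the methionine salvage genes Mri1 (0.65) and Adi1 (0.54) differed in their Ag response.

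The genes whose levels ran closest to Myc and Odc1 over the 18 libraries were found by Pearson correlation of log2(normalized count + 1) among 10361 genes. Closest to Myc were Gdap10 (r = 0.997), Ywhae (0.995), Bend3 (0.995), Gm7278 (0.995) and Lonrf1 (0.993). Closest to Odc1 were Mapk6 (0.995), Psmd11 (0.994), Srgn (0.993), Mir155 (0.993) and Myc itself (0.991). These values describe a shared rise from untreated to stimulated groups, with libraries of 6 groups as the points.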

How the data were processed

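RNA was measured by rRNA-depleted RNA-seq in 18 libraries, 3 in each of 6 groups. Per the labels and the study's methods, the authors aligned reads with TopHat2 2.1.1 to mm9 (NCBIM37), counted reads per gene with HTSeq 0.9.1 and deposited raw counts for each library. The submitters' processing notes also name DESeq2 1.18 and edgeR 3.24. The strand and overlap settings of the counting are not given in the sources used here. Whether replicates came from separate mice was taken from the labels only as separate samples, so p-values measure the spread between these samples.

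Counts were scaled by TMM and tested with edgeR 4.0.16 in R 4.3.3 (quasi-likelihood test, robust, one 6-group model over all libraries, Benjamini-Hochberg adjustment). A gene was tested where any group reached a mean normalized count of 3 (17240 of 37991, of which 24647 had at least 1 read), and a call is an adjusted p under 0.05. A second rule also asked for a 2-fold change and a mean above 50. The script was tested on simulated data. Depth ranged from 10758571 to 24119489 counts per library, which sets the counting error of low genes such as Arg1. Y-linked reads were used only as a technical covariate and to split libraries.

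The members and lists were chosen with earlier results of these data known. All 10 members were named in every comparison. From each list the text names up to 3 genes with the largest absolute change among those called in NAg against N0, TAg against NAg or TPI against T0, and up to 3 that differed in the Ag response, and for Myc and Odc1 the 5 genes with the most similar pattern. A gene that this rule names in the MYC turnover list is not reported here. Alternatives were DESeq2 1.42.0, DESeq2 size factors in edgeR, calls by both tools, no low-count filter, only the groups compared, the replicate number as a block, marker scores or the Y-linked level as covariates, the 2-fold rule, Amd1 summed with Amd2, and each library left out in turn. Added after the data were seen were scaling by library totals, Mxi1 summed with Gm10197, and the comparisons of PI with Ag.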

Additional observations from a re-analysis of the deposited data

Results flagged for a closer look

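Each of the values here was picked out because the response of tolerized cells differed from that of naive cells by the test of that difference (edgeR, adjusted p under 0.05 over all tested genes). For Ag these were Odc1 (-1.11), Mxd1 (-0.71), Myc (-0.69), Sms (-0.41) and Mxd4 (0.52). For PI they were Srm (1.22), Mxi1 (0.56), Mnt (0.53), Myc (0.51), Sms (0.45) and Mxd4 (-0.47). Values are on the log2 scale and positive where the tolerized response was higher. Y-linked reads were present in all PI libraries and in no N0 library. They were also present in T0 replicates 1 and 2 and TAg replicate 3, and in no NAg library. Sex is therefore partly confounded with the differences for both stimuli. The neutrophil marker sums were higher in T0, TAg and TPI than in N0, NAg and NPI, and their part in these differences was not tested beyond the fit with marker scores as covariates.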

How the results depend on the processing

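Over the alternatives that kept all libraries, 829 fold changes of members kept their direction and their side of the threshold, 41 lost their call, 13 gained one and 19 turned in sign. Over those that left out 1 library the numbers were 735, 32, 9 and 4.

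With the 2-fold rule, 0 members were called in T0 vs N0, 0 in TAg vs NAg, 0 in TPI vs NPI, 4 in NPI vs N0, 6 in TPI vs T0, 4 in NPI vs NAg, 1 in the difference in Ag response and 1 in that of PI. T0 vs N0 gave 1 call with only the groups compared and 1 with the Y-linked level. It gave 0 with the erythroid and myeloid marker scores, where 26 of all 17240 tested genes were called higher and 29 lower. TPI vs NPI gave 4 with the marker scores, where 1787 were called higher and 1365 lower. The difference in PI response gave 2 by library totals.

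With 1 library left out, the members called ranged from 1 to 2 in T0 vs N0, 7 to 9 in TAg vs NAg, 6 to 7 in TPI vs NPI, 8 to 9 in NPI vs N0, 8 to 9 in NPI vs NAg, 6 to 7 in TPI vs TAg, 4 to 7 in the difference in Ag response and 5 to 7 in that of PI, and stayed at 10 in the other 3 comparisons. Signs turned for Myc in T0 vs N0 (-0.103 to 0.037), Amd1 in TPI vs NPI (-0.092 to 0.004), Srm in the difference in Ag response (-0.027 to 0.212) and Mnt in TPI vs TAg (-0.013 to 0.129).

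Signs also turned by library totals for Mnt (0.027) and Myc (0.056) in T0 vs N0, Max (-0.06) in TPI vs NPI, Srm (-0.331), Max (-0.196) and Sms (-0.256) in NPI vs N0, Max (-0.249) and Sms (-0.031) in TPI vs T0, Max (-0.053) in the difference in PI response, and Mnt (-0.421) and Myc (-0.033) in TPI vs TAg. With the marker scores they turned for Mnt (0.215) and Myc (0.073) in T0 vs N0, Amd1 (0.013) in TPI vs NPI and Mnt (-0.329) in TPI vs TAg. With the Y-linked level they turned for Max in T0 vs N0 (0.008) and NPI vs NAg (0.084) and Mnt in TPI vs TAg (-0.033), and with only the groups compared for Myc in T0 vs N0 (0.024). The causes were not tested.

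The replicate number as a block changed no call of a member (10 in NAg vs N0, 8 in TAg vs NAg and 3 in T0 vs N0). Same-numbered libraries deviated from their group means with correlations of -0.23 to 0.14 (median -0.01 over 45 pairs). The labels do not say whether same-numbered libraries share a mouse or a batch, and these correlations cannot settle it.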
